A study of Homo sapiens with 8 samples.

Results

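Chromatin accessibility at 9 regulator genes of the kidney lineage was examined in HEK293T, a human embryonic kidney line, by ATAC-seq, in which the Tn5 transposase cuts open DNA and the cut fragments are sequenced. The genes were PAX2, PAX8, WT1, LHX1, SIX2, EYA1, SALL1, OSR1 and HNF4A, chosen for their known role in nephron and ureteric development, and are 9 of the 19955 protein-coding genes measured. All peaks in each gene body and within 10 kb of its GENCODE 44 transcription start sites (TSSs) on GRCh38 were taken as the locus of the gene. Overlapping peaks from any of the 8 libraries were joined into 1 region, which gave 48 regions in these loci of 101836 regions in all. To avoid confusion, WT1 always names the gene and WT always names the line with wild-type EZH2.

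The 4 stable lines had received an EZH2 gene by lentivirus, in wild-type form (the WT line) or with the change Y641F, the change A677G or the double change H689A/F667I, and 2 libraries were made of each. In the naming of the study the first pair of mutants gains function (GOF) and the double mutant loses it (LOF). Each line was selected with blasticidin to a population that the study calls monoclonal, kept its own EZH2 gene, and is a single line, so a difference between clones and a difference between EZH2 forms cannot be told apart. Libraries of the empty vector were not analysed here, and the WT line also carries added EZH2.

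EZH2 is the enzyme of the Polycomb complex PRC2 and places the repressive mark H3K27me3 on chromatin. Promoters of developmental regulators often lie in CpG islands, stretches rich in the dinucleotide CG, and such promoters are classical Polycomb targets. In the embryonic kidney the ureteric bud branches into the collecting system while the cap mesenchyme around its tips gives rise to nephrons. SIX2, EYA1, SALL1, OSR1 and WT1 act in the mesenchyme, PAX2 and PAX8 in both compartments, LHX1 in the bud and the early nephron, and HNF4A in the proximal tubule.

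By GENCODE 44 on GRCh38, the genes of the mesenchyme were annotated as SIX2 (ENSG00000170577) at chr2:45005182-45009452 on the minus strand, EYA1 (ENSG00000104313) at chr8:71197433-71592025 on the minus strand, SALL1 (ENSG00000103449) at chr16:51135982-51152334 on the minus strand, OSR1 (ENSG00000143867) at chr2:19351485-19358623 on the minus strand and WT1 (ENSG00000184937) at chr11:32387775-32435564 on the minus strand. The other genes were PAX2 (ENSG00000075891) at chr10:100735396-100829944 on the plus strand, PAX8 (ENSG00000125618) at chr2:113215997-113278921 on the minus strand, LHX1 (ENSG00000273706) at chr17:36936785-36944612 on the plus strand and HNF4A (ENSG00000101076) at chr20:44355699-44432845 on the plus strand.

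A pair of promoter sequences is shown first, since they contrast a promoter under a peak in every library with one under none. The 250 bases before the RefSeq start (GRCh38.p14) lay under a peak in all 8 libraries for SIX2 and lay under no peak in any library for PAX8. Capitals mark every CG, and both genes are on the minus strand.

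SIX2 (chr2:45009453-45009702, minus strand): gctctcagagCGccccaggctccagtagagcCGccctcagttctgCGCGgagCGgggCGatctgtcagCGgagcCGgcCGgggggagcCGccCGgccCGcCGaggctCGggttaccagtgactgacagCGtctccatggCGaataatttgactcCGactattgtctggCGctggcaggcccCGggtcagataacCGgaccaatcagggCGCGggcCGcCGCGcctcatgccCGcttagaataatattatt

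PAX8 (chr2:113278922-113279171, minus strand): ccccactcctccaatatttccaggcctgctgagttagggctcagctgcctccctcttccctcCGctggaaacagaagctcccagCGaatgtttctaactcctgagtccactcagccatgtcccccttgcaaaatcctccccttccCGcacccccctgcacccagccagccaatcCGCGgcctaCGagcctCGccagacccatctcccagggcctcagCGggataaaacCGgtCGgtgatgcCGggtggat

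The SIX2 stretch holds 26 CG and has a ratio of observed to expected CG of 0.967, higher than 88.7% of the 35116 promoters in the RefSeq table. The PAX8 stretch holds 11 CG with a ratio of 0.518, higher than 47.8% of those promoters. The table held promoters of 5 of the 9 genes. PAX2 and WT1 had a peak at the canonical TSS in all 8 libraries. The ratios before those starts were 0.556 and 0.616, higher than 49.8% and 53.5% of promoters and nearer to PAX8 than to SIX2. The pair is therefore only an example, and a link between CG content and peaks was not tested.

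The next 3 windows of 300 bases lie at the centres of merged regions and overlap no annotated exon. Picked by name as examples, each holds a motif that is marked in it. They are the region upstream of OSR1, the constant region in an intron of HNF4A and the region downstream of WT1. Plus strand sequence of GRCh38 is given. Capitals mark the core motif of the insulator protein CTCF in OSR1 and HNF4A, and TGACTCA (the site of the stress-responsive factor AP-1) in WT1. These motifs and GGGCGG (the GC box bound by Sp1) were searched on both strands.

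OSR1 upstream region (chr2:19363119-19363418): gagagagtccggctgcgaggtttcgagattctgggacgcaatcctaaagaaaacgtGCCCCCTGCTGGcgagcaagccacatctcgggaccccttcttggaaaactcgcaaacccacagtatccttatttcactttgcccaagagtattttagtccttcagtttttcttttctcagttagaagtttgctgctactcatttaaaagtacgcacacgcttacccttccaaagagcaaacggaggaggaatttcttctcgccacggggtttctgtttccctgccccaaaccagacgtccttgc

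HNF4A intronic region (chr20:44388600-44388899): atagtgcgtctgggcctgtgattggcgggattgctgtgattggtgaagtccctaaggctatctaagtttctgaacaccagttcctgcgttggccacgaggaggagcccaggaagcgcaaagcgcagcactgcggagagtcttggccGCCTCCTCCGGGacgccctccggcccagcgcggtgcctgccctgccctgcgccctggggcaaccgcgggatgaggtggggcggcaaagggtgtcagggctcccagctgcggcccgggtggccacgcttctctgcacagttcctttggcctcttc

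WT1 downstream region (chr11:32386017-32386316): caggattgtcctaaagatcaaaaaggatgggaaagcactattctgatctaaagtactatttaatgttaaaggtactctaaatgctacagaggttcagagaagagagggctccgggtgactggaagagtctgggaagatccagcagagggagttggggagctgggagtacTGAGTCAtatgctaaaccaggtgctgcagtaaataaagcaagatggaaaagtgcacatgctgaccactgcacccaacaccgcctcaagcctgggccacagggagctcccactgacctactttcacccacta

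The same letters were counted in 300-base windows of all 61878 regions open in 2 or more libraries. GGGCGG was found in 58.1% of promoter windows and 12.1% of distal ones, the CTCF core in 7.08% and 7.23%, and TGACTCA in 2.89% and 8.49%. Promoter and distal windows together held these motifs in 24.6%, 7.19% and 6.97%, in the same order. Among the 29 windows of the 9 loci open in 2 or more libraries, 11 held GGGCGG, 2 held the CTCF core and 3 held TGACTCA. A match is a match of letters and was not tested as a binding site.

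The libraries differed in how many peaks were called, and read depth is unknown, so each count at these loci is set beside the same count over all genes or regions. WT had 64923 and 62514 peaks, Y641F 26350 and 36598, A677G 38016 and 46358, and H689A/F667I 47840 and 48755. In the 9 loci together, 32 and 30 peaks were called in WT, 17 and 18 in Y641F, 20 and 25 in A677G, with 24 and 28 in H689A/F667I. Per megabase covered by peaks in the library, the loci held 577 to 591 bp of peak in WT, 626 to 683 bp in Y641F, 610 to 628 bp in A677G and 557 to 602 bp in H689A/F667I. The part of peak yield in the differences between lines at these loci was not tested beyond these values and the comparison at equal peak number given below. The presence of a promoter peak was recorded for markers of cell types. Of all 19955 protein-coding genes, 11809 had one in all 8 libraries, so an open marker does not establish a cell type. PAX2 and EPCAM were open in all 8 libraries, CDH6 in 6, PAX8 in 2 and CDH16 in none. Of the neurofilament genes reported for the HEK293 lineage, NEFL and NEFM were open in all 8, INA in 7 and NEFH in 3. Of 4 blood markers 3 were closed throughout and CD79A had a peak in 1 library, of 3 liver markers only TTR had any, in 3 libraries, and of the muscle markers MYOD1 was open in all 8 and DES in 1.

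Of the 48 regions, 14 were promoter regions, within 1 kb of a TSS of the gene, and 34 were distal. In all 8 libraries 12 regions were open, and in a single library 19. These 12 were the promoters of PAX2, WT1, LHX1, SIX2, EYA1 and SALL1 and 6 distal regions, with no more than 2 regions of any locus. Both replicates shared 25 of the 37 regions open in WT, 14 of the 19 open in Y641F, 16 of 26 for A677G and 17 of 34 for H689A/F667I. A peak in 1 library alone was therefore common and is given below only as such.

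**Figure D1:**
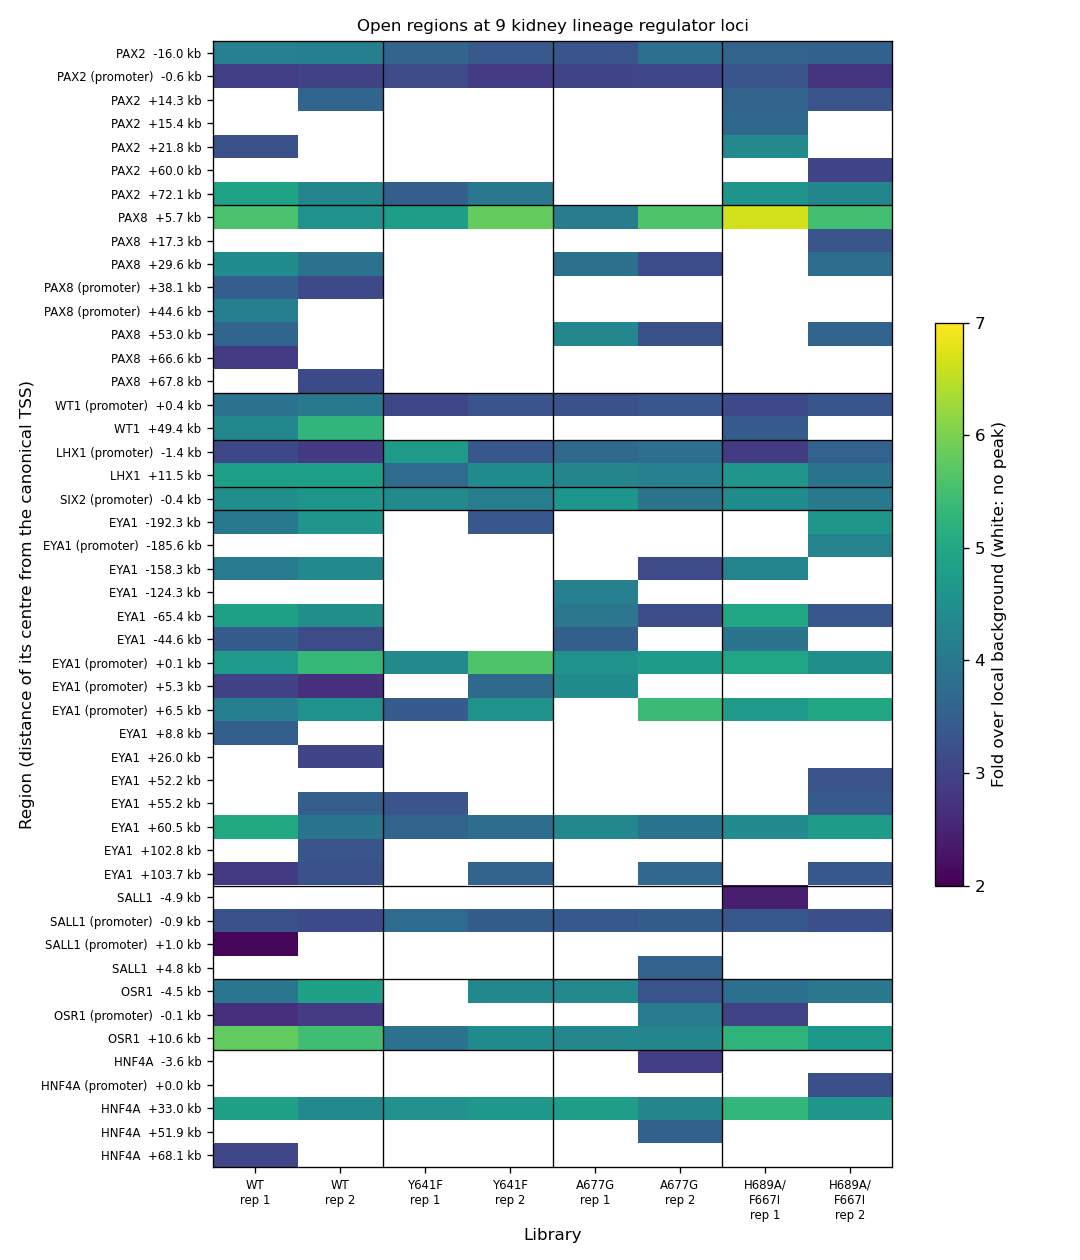
Map of the 48 regions of the 9 loci (rows, labelled by gene and by the distance in kb of the region's centre from the canonical TSS) in the 8 libraries (columns). Colour gives the fold of the strongest peak of the region over local background and white means that no peak was called; 12 rows are filled in every library, and 19 in 1 library only.

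The promoters open throughout were described first. SIX2, a homeodomain factor that keeps nephron progenitors undifferentiated, had the most significant promoter peak of the 9 genes. Its −log10 p was 19.95 and 19.75 in WT, 12.9 and 14.4 in Y641F, 17.1 and 14.2 in A677G, with 16.4 and 14.0 in H689A/F667I. Its fold, the ratio of pileup to local background, was 4.48 and 4.64 in WT, 4.38 and 4.14 in Y641F, 4.62 and 3.93 in A677G, with 4.43 and 4.03 in H689A/F667I. The −log10 p was lower in all 6 mutant libraries than in both WT libraries, and the share of promoters that did so was not counted. The fold was lower in Y641F and H689A/F667I, as at 46.0% and 27.5% of all regions open in all 8 libraries, but overlapped WT in A677G. Over all promoters open in all 8 libraries, median −log10 p was also lower, at 12.9 and 12.5 in WT and 7.50 to 10.4 in the mutants. Their median fold was 4.40 and 4.45 in WT and 4.03 to 4.36 in the mutants. With the median of each library subtracted, log2 of the SIX2 −log10 p differed from WT by 0.088 (Y641F), 0.062 (A677G) and -0.071 (LOF line). SIX2 was the gene of the 9 with a single region in its locus.

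EYA1, the phosphatase and co-activator that acts with SIX2, had the highest promoter fold in WT. It was 4.71 and 5.33 in WT, 4.35 and 5.62 in Y641F, 4.56 and 5.40 in A677G, with 4.95 and 5.00 in H689A/F667I. The WT values lay within the range of the mutants. The value is that of the strongest peak at any start of the gene, and the 5.40 of A677G replicate 2 and the 5.00 of H689A/F667I replicate 2 came from a region at 6.53 kb. Its summed promoter width was 1606 and 1589 bp in WT. It was 865 to 1451 bp in the 6 mutant libraries, so width was lower in each of them. The share of promoters narrower in all 6 was not counted. The median promoter was also narrower, at 1354 and 1336 bp in WT and 787 to 1138 bp in the mutants. With the median of each library subtracted, log2 width of EYA1 differed from WT by -0.071 (Y641F), -0.21 (A677G) and -0.20 (LOF line).

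PAX2, a paired-box factor required for both nephron and duct, had a broad and shallow promoter. The fold was 2.93 and 2.99 in WT, 3.16 and 2.88 in Y641F, 3.04 and 2.85 in A677G, with 3.33 and 2.75 in H689A/F667I. The summed width was 2522 and 2371 bp in WT, 1564 and 2563 bp in Y641F, 1324 and 1936 bp in A677G, with 2541 and 2439 bp in H689A/F667I. Both A677G libraries were narrower than both WT libraries, whereas Y641F and H689A/F667I each had a library wider than both. The median promoter was narrower in every mutant library, as given for EYA1, and the share narrower in both A677G libraries was not counted. The difference between mutants was not tested.

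SALL1, a zinc-finger factor of the progenitor pool, had a fold of 3.26 and 3.12 in WT, 3.75 and 3.48 in Y641F, 3.37 and 3.48 in A677G, with 3.38 and 3.21 in H689A/F667I. Its width was 1889 and 2001 bp in WT and 583 to 1555 bp in the mutants, where the median promoter was narrower too. With the median of each library subtracted, log2 width of SALL1 differed from WT by -0.48 (Y641F), -0.11 (A677G) and -0.30 (LOF line). Fold was higher and width lower than WT in both libraries of Y641F and A677G. Of all regions open in all 8 libraries, 11.8% had a higher fold in both Y641F libraries and 15.8% in both A677G libraries. The share of promoters narrower in both libraries was not counted. The fold given by the peak caller is an average over a broad peak, and the part of call width in these fold differences was not tested.

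The width and the fold of the LHX1 promoter both varied between libraries. LHX1, a LIM-homeodomain factor needed for the ureteric bud and the renal vesicle, had a fold of 3.09 and 2.85 in WT, 4.73 and 3.37 in Y641F, 3.73 and 3.82 in A677G, with 2.87 and 3.56 in H689A/F667I. Its width was 2568 and 2483 bp in WT, 310 and 2061 bp in Y641F, 800 and 1123 bp in A677G, with 2037 and 1180 bp in H689A/F667I. Y641F replicate 1, the library with the fewest peaks, had both the narrowest call and the highest fold. LHX1-DT, a divergent non-coding gene, starts within 1 kb of the region.

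WT1, the zinc-finger factor of the progenitors and later of the podocyte, had a lower fold in every mutant library while its width overlapped WT. The fold was 3.91 and 4.02 in WT, 3.07 and 3.29 in Y641F, 3.24 and 3.36 in A677G, with 3.11 and 3.34 in H689A/F667I. All 6 mutant libraries lay below both WT libraries, with means of 3.97 ± 0.0812 (SD, n = 2) in WT and of 3.18 to 3.30 in the mutants. The median fold over all promoters open throughout was also lower, at 4.40 and 4.45 in WT and 4.03 to 4.36 in the mutants. The share of promoters lower in all 6 was not counted. The −log10 p of WT1 was 8.66 and 8.39 in WT and 4.09 to 6.28 in the mutants. The median promoter had 12.9 and 12.5 in WT and 7.50 to 10.4 in the mutants. The width of WT1 was 1326 and 1185 bp in WT and 1259 to 1401 bp in the mutants, which overlapped. The region also lies within 1 kb of the starts of the antisense gene WT1-AS and of unnamed annotated genes, and accessibility cannot be assigned to any of them.

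**Figure D2:**
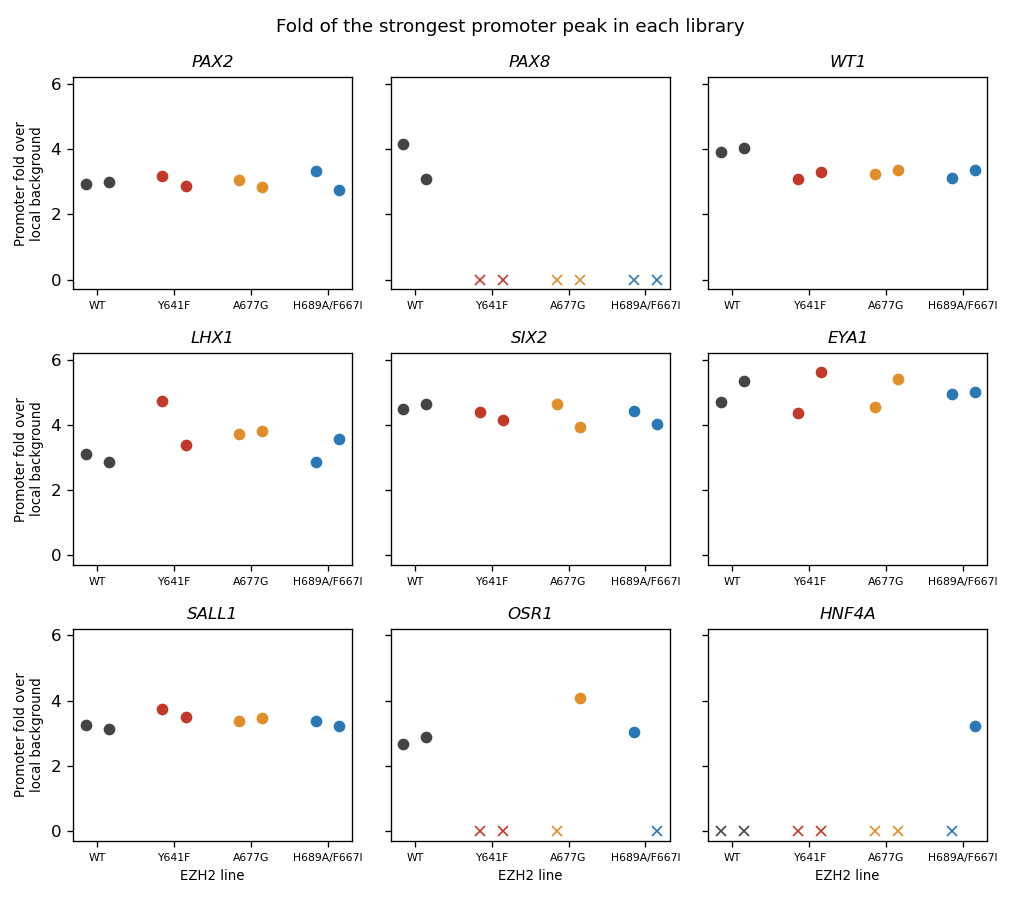
Fold over local background of the strongest promoter peak (vertical axis) in each library of the 4 EZH2 lines (horizontal axis) for the 9 genes; points are libraries and crosses at 0 mark libraries without a promoter peak. For WT1 all 6 mutant points lie below both WT points, and PAX8 has points in WT only.

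In the WT line these promoters fell into different parts of the distribution over the 11809 protein-coding promoters open in all 8 libraries. Mean WT width was 2447 bp for PAX2, 2526 bp for LHX1 and 1945 bp for SALL1, wider than 91.1%, 92.1% and 80.5% of those promoters, whose median was 1347 bp. Their mean WT fold of 2.96, 2.97 and 3.19 was above only 3.01%, 3.16% and 6.30% of them. SIX2, WT1 and EYA1 had widths wider than 36.7%, 42.7% and 66.2% of promoters and folds higher than 55.1%, 30.0% and 71.6%. PAX2, LHX1 and SALL1 were thus broad and of low fold, and SIX2, WT1 and EYA1 were nearer the middle.

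**Figure D3:**
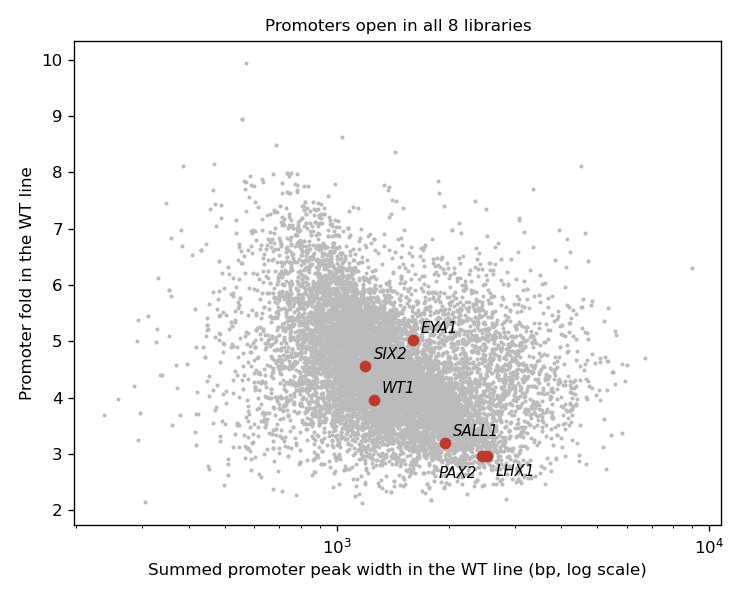
Mean fold (vertical axis) against mean summed peak width in bp on a log scale (horizontal axis) in the 2 WT libraries for the 11809 protein-coding promoters open in all 8 libraries (grey) and the 6 genes of the set among them (red). PAX2, LHX1 and SALL1 lie low and to the right, with folds of 2.96 to 3.19.

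Each mutant was then compared with WT by limma on log2 promoter values of the 11809 promoters, centred on the median of each library, with Benjamini-Hochberg adjustment over all of them. The 6 genes PAX2, WT1, LHX1, SIX2, EYA1 and SALL1 could be tested, and PAX8, OSR1 and HNF4A could not because they lacked a peak in some libraries. For fold, 0 of the 6 passed an adjusted p of 0.05 in any mutant, where 2.02% of all promoters passed for Y641F and 0.0% passed for each other mutant. For summed width, 0 of the 6 passed, against 0.0% of all promoters for Y641F, 0.00847% for A677G and 0.0% for the LOF line. For −log10 p, 0 of the 6 passed, against 2.09%, 0.0254% and 0.0% of all promoters in the same order. With an unadjusted limma p under 0.05, fold counted 3 of the 6 genes in Y641F (WT1, SALL1, LHX1), 2 in A677G (WT1, LHX1) and 1 in H689A/F667I (WT1), while 2603, 1656 and 1019 of all promoters did so.

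The largest fold difference among the 6 was that of LHX1 in Y641F, a log2 difference of 0.54 (SE 0.156, limma adjusted p = 0.0792). It was 0.39 (SE 0.156, limma adjusted p = 0.288) in A677G. Without Y641F replicate 2, the Y641F value was 0.81 and passed (limma adjusted p = 0.0413), and it then rested on the narrow call of replicate 1 alone. For −log10 p, LHX1 differed by 1.00 on the log2 scale in Y641F (SE 0.264, limma adjusted p = 0.0650).

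WT1 fold fell short of the threshold in all mutants. Its log2 difference was -0.21 in Y641F (limma adjusted p = 0.203), -0.22 in A677G (limma adjusted p = 0.315) and -0.27 in H689A/F667I (limma adjusted p = 0.438), each with an SE of 0.0922. The sign was negative in each mutant with 500 bp promoters, other centring, the replicate block and each library left out. WT1 was not among the promoters that could be fitted at equal peak number or under the stricter q threshold (−log10 q of 5). The width of WT1 differed by 0.65 in Y641F on the centred log2 scale (SE 0.185, limma adjusted p = 0.207), a scale from which the narrowing of the median promoter has been subtracted. Without centring, the median promoter changed by -0.57 in log2 width and -0.59 in log2 of −log10 p in Y641F, by -0.34 and -0.39 in A677G, and by -0.22 and -0.31 in H689A/F667I. SALL1 fold differed by 0.29 in Y641F (SE 0.0975, limma adjusted p = 0.114).

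Promoters without a peak were counted next. Of the 8 genes with a promoter peak in both WT libraries, 2 were closed in both Y641F libraries (PAX8 and OSR1), 1 in both A677G libraries (PAX8) and 1 in both H689A/F667I libraries (PAX8). Over all protein-coding promoters open in both WT libraries, the shares closed in the same 3 lines were 6.72%, 2.24% and 1.53%. With 8 genes, 1 gene is 1 of 8, so these counts cannot be read as a rate. Closed means that no peak was called, not that no signal was present. In bulk libraries, fewer cells with an open site and weaker opening in each cell cannot be told apart.

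PAX8, the paired-box partner of PAX2 in early nephron formation, had the lowest ratio of covered length to WT of the 9 loci in each mutant. Its canonical TSS had no peak in any of the 8 libraries. The promoter peaks counted for PAX8 lay at internal starts, in a region of chr2:113240144-113241219 centred 38.1 kb downstream of the canonical TSS and in a smaller one at 44.6 kb that was open in WT replicate 1 only. The former had a fold of 3.5004 and 3.09 in WT and no peak in any of the 6 mutant libraries. In WT its −log10 p was 4.78 and 3.72, higher than 33.4% and 13.5% of the peaks of those libraries, so it was among the weaker peaks. It overlaps exons of PAX8 and of the antisense gene PAX8-AS1, and its centre lay 0.993 kb from the nearest PAX8 TSS, near the edge of the promoter window. With a promoter window of 500 bp PAX8 was no longer counted as open in WT and the counts became 1, 0 and 0.

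Other PAX8 regions followed different patterns. An intronic region 5.67 kb downstream of the canonical TSS was open in all 8 libraries with a fold of 5.57 and 4.57 in WT, 4.79 and 5.82 in Y641F, 4.10 and 5.62 in A677G, with 6.65 and 5.48 in H689A/F667I. WT lay within the range of the mutants there. A region at 29.6 kb had a fold of 4.44 and 3.89 in WT, no peak in Y641F, 3.85 and 3.17 in A677G, and 3.78 in H689A/F667I replicate 2 only. A region at 53.0 kb, on an exon, was open in WT replicate 1, both A677G libraries and H689A/F667I replicate 2.

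The covered length of the PAX8 locus summed these regions. It was 3570 and 2426 bp in WT, 225 and 295 bp in Y641F, 640 and 1098 bp in A677G, with 299 and 978 bp in H689A/F667I. Every mutant library lay below both WT libraries. The ratios of means to WT were 0.0867, 0.290 and 0.213 for Y641F, A677G and H689A/F667I, where the median of all loci was 0.512, 0.667 and 0.785. Of all loci with peaks in both WT libraries, 7.29%, 6.04% and 2.42% had a lower ratio. As a share of the covered length of its library, PAX8 was also below WT in both libraries of all 3 mutants, as 23% of all loci were in Y641F, 15.8% in A677G and 14.8% in the LOF line. With equal peak numbers PAX8 again had less covered length in both libraries of each mutant.

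**Figure D4:**
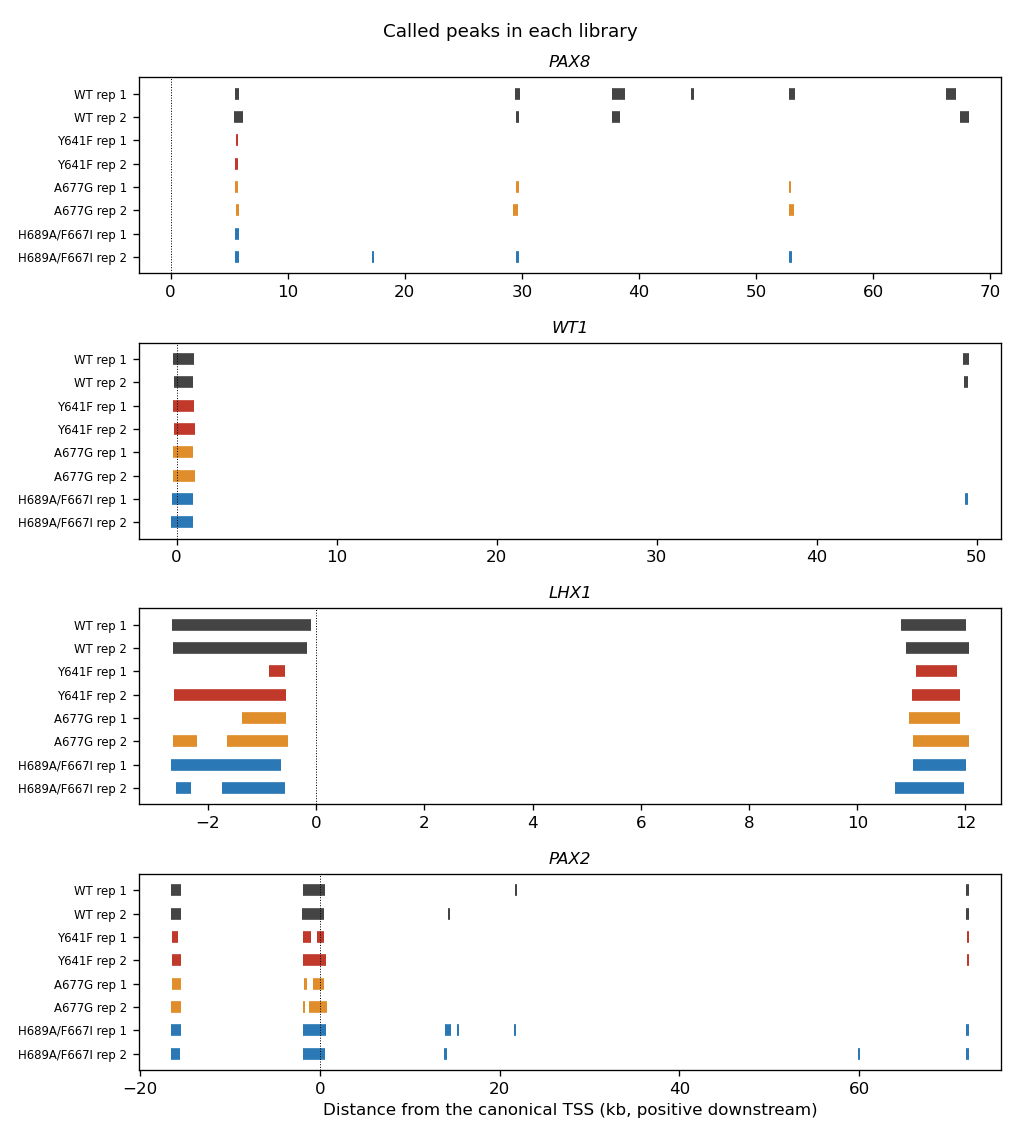
Called peaks (bars) in each library (rows, coloured by line) at PAX8, WT1, LHX1 and PAX2, by distance from the canonical TSS in kb, positive downstream. At PAX8 the peak at 5.67 kb appears in every row and the one at 38.1 kb in both WT rows only; at LHX1 the promoter call runs from 310 bp in Y641F replicate 1 to 2568 bp in WT replicate 1.

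OSR1, a zinc-finger factor of the earliest kidney mesenchyme, had a weak promoter peak. Its fold was 2.68 and 2.89 in WT, 4.07 in A677G replicate 2 and 3.03 in H689A/F667I replicate 1, and no peak was called in either Y641F library, in A677G replicate 1 or in H689A/F667I replicate 2. Its −log10 p in WT was 3.55 and 3.74. The upstream region at -4.502 kb, whose window holds the CTCF core, was open in 7 libraries and missing in Y641F replicate 1 only. Its fold was 3.95 and 4.86 in WT and 3.29 to 4.35 in the 5 mutant libraries with a peak. Another region 10.6 kb downstream of the TSS, at the starts of LINC01376 and MIR4757, was open in all 8, with 5.80 and 5.47 in WT against 3.86 to 5.24 in the mutants. That distal region had a lower fold in all 6 mutant libraries than in both WT libraries. Of all regions open in all 8 libraries, 46.0% were lower in both Y641F libraries, 33.8% in both A677G libraries and 27.5% in both H689A/F667I libraries.

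HNF4A, the nuclear receptor of the proximal tubule, had no promoter peak in 7 of the 8 libraries. A single peak with a fold of 3.22, at the canonical TSS, was called in H689A/F667I replicate 2. The intronic region 32.99 kb downstream of the canonical TSS was nevertheless open in all 8 libraries, with a fold of 4.86 and 4.38 in WT, 4.53 and 4.67 in Y641F, 4.78 and 4.28 in A677G, with 5.30 and 4.62 in H689A/F667I. The WT values lay within the mutant range. Its window holds 1 CTCF core and 1 GGGCGG and has a GC content of 65.3%, against a median of 48.0% over distal regions open in 2 or more libraries. The other 4 HNF4A regions were each open in 1 library.

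Regions open in WT and closed in a mutant were compared across the 9 loci. Of 25 regions open in both WT libraries, 7 were closed in both Y641F libraries, 4 in both A677G libraries and 2 in both H689A/F667I libraries. Over all 48615 such regions the shares were 35.3%, 20.8% and 14.2%. No test was made of the 25 regions against the rest. Of the 7 regions lost in Y641F, 3 were intronic in EYA1, 2 belonged to PAX8, 1 was downstream of WT1 and 1 was the OSR1 promoter. A677G lacked 1 region of each of PAX8, EYA1, PAX2 and WT1. H689A/F667I lacked 1 PAX8 and 1 EYA1 promoter region and no distal one. Each of the 11 regions closed in both WT libraries was open in fewer than 2 libraries of every mutant, so 0 were gained, against 1.11%, 1.65% and 2.83% of all regions in the same order.

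The WT1 downstream region lay outside the gene, 49.4 kb from the canonical TSS. It had a fold of 4.34 and 5.30 in WT and 3.46 in H689A/F667I replicate 1, and no peak was called in Y641F, A677G or H689A/F667I replicate 2. In WT its −log10 p was higher than that of 58.1% and 74.1% of the peaks of those libraries. The PAX2 region lost in A677G, intronic at 72.1 kb, had a fold of 4.91 and 4.28 in WT, 3.52 and 4.01 in Y641F, and 4.59 and 4.30 in H689A/F667I. Its absence was thus seen in A677G alone, and no test of the difference between mutants was made.

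The EYA1 locus held 16 of the 48 regions, most of them in introns. A region at -65.4 kb from the canonical TSS had 4.84 and 4.47 in WT, no peak in Y641F, 3.98 and 3.20 in A677G, with 4.99 and 3.36 in H689A/F667I. A region at 60.5 kb downstream was open in all 8 libraries with 5.05 and 3.95 in WT and 3.61 to 4.75 in the mutants. Covered length of the locus was 5667 and 6755 bp in WT, 1744 and 2923 bp in Y641F, 3067 and 3616 bp in A677G, with 1923 and 4861 bp in H689A/F667I. All mutant libraries were below both WT libraries, and the ratio of means was 0.376, 0.538 and 0.546. The median ratio of all loci was 0.512, 0.667 and 0.785 in the same order.

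In the 12 regions open in all 8 libraries the fold could be compared without missing peaks. In Y641F, 6 regions had a lower fold in both libraries than in both WT libraries, against 46.0% of all such regions, and 2 had a higher one, against 11.8%. In A677G these numbers were 4, against 33.8%, and 3, against 15.8%. In H689A/F667I they were 5, against 27.5%, and 0, against 16.3%. The regions lower in all 3 mutants were the WT1 promoter, the OSR1 region at 10.6 kb, the PAX2 region at -16.0 kb and a region of LHX1. That LHX1 region lies 11.5 kb downstream of the start and is the promoter of AATF, a gene of transcription and apoptosis. The share of all such regions lower in all 3 mutants was not counted, and each mutant was compared with the same 2 WT libraries. The PAX2 upstream region had 4.18 and 4.16 in WT, 3.62 and 3.40 in Y641F, 3.30 and 3.83 in A677G, with 3.58 and 3.55 in H689A/F667I.

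Covered length was lower than in both WT libraries in both libraries of Y641F at 8 of 9 loci, of A677G at 7 and of H689A/F667I at 5. Over all loci with peaks in both WT libraries it was lower at 86.7%, 73.1% and 55.6%. The genes PAX8, LHX1, EYA1, SALL1 and OSR1 were lower in all 3 mutants, and the share of all loci lower in all 3 was not counted. SIX2 was the locus without such a loss in Y641F, with 1269 and 1113 bp in WT and 998 and 1123 bp in Y641F. PAX2 had 4233 and 4120 bp in WT, 2471 and 3938 bp in Y641F, 2826 and 3263 bp in A677G, with 5130 and 4229 bp in H689A/F667I. The median ratios to WT over the 9 loci were 0.519, 0.729 and 0.764, beside 0.512, 0.667 and 0.785 over all loci. As a share of the covered length of the library, PAX8 and EYA1 were lower in Y641F and PAX8 alone in A677G and in H689A/F667I. PAX2, WT1 and SIX2 were higher by this measure in all 3 mutants, and the share of all loci that were higher was not counted. The libraries covered 42.5 and 41.3 Mb in WT and 15.2 to 30.4 Mb in the mutants, so the denominator was smaller in every mutant library.

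**Figure D5:**
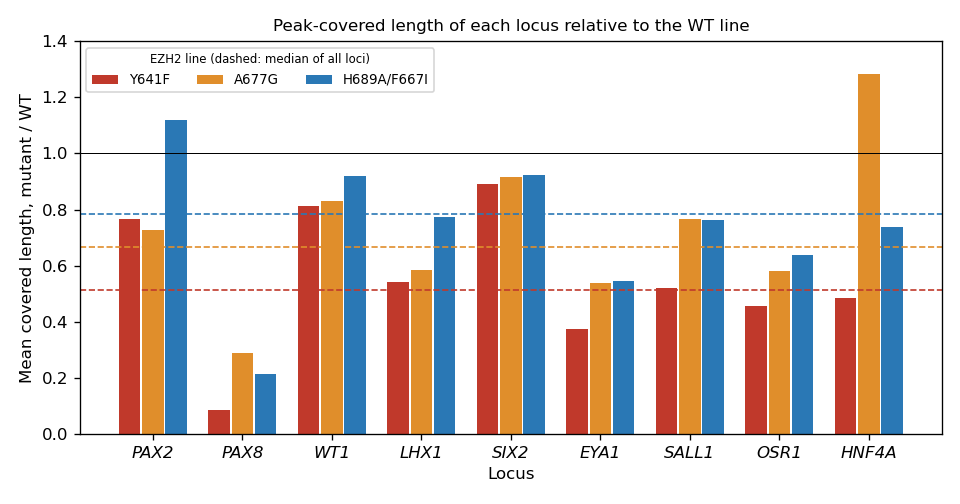
Ratio of the mean peak-covered length in each mutant to the mean in WT (bars, axis from 0) for the 9 loci, 2 libraries per line; dashed lines give the median ratio of all 17048 loci for each mutant. PAX8 lies lowest in each mutant, at 0.0867 in Y641F, and PAX2 in H689A/F667I and HNF4A in A677G lie above 1.

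The remaining kidney genes were followed in lists of nephron progenitor, ureteric bud and collecting duct, stroma, podocyte and tubule genes, 66 in all. Promoters were open in all 8 libraries for 33 of them and in none for 13, beside 11809 and 4451 of all 19955 protein-coding genes. Of the 48 open in both WT libraries, 9 were closed in Y641F and 2 in each of the other mutants, beside the shares of all promoters given above. The 9 closed in Y641F were HOXA11, HOXC11, WNT4, FGF8, SOX8, ELF3, FOXC1, FOXC2 and CDH6, named after their values were seen. None of the podocyte list was among them, but only 5 of its 8 genes were open in both WT libraries, too few to read as a difference. In limma, SIX4, a relative of SIX2 that acts with EYA1, rose in fold in Y641F (log2 difference 0.65, SE 0.119, adjusted p = 0.0329) and no other list gene passed for fold in any mutant. SIX4 also passed for −log10 p in Y641F, a call lost under 6 of 14 alternatives, and so did ETV5, a factor downstream of RET in the bud tip, with 0.79 (SE 0.187, limma adjusted p = 0.0444). The SIX4 fold call was lost when any WT or Y641F library was left out, with log2 differences of 0.56 to 0.74 and limma adjusted p from 0.0666 to 0.167, and the ETV5 call was lost under 11 of 14 alternatives. ETV5 was named after its value was seen.

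The list genes whose profiles of covered length, as a share of the library, were nearest to those of 8 of the 9 genes over the 8 libraries were found by Euclidean distance on the log2 scale. GDNF was nearest to WT1 (0.570) and IRX3 to SIX2 (0.509). HOXA11 was nearest to OSR1 (0.738), HOXD11 to PAX2 (0.739), SOX9 to SALL1 (0.817) and MEIS2 to EYA1 (1.05). HNF4A had AQP2 at 1.74 and PAX8 had WNT4 at 2.40. Median distances to the 66 genes were 4.89 for HNF4A, 4.00 for PAX8 and from 2.38 (WT1) to 3.93 (PAX2) for the others named. A pseudocount of 100 bp was used. AQP2 had a promoter peak in 0 libraries and the HNF4A locus held only 296 to 1128 bp, so that match lies near the floor. The libraries share their peak yield, so these distances describe the profiles only.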

How the data were processed

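Peak lists of 8 ATAC-seq libraries were used, 4 lines with 2 libraries each, grouped by the sample titles. Per the labels and the methods of the study, the authors trimmed reads with Trim Galore 0.6.5, aligned them to GRCh38/hg38 with BWA 0.7.17, removed duplicates with Samtools and called broad peaks per library with MACS2 2.2.7.1. The labels also name deepTools 3.5.1. The deposited fold is a linear ratio given by MACS2, read pileup over the expected background, and the authors' value for a broad peak is its average. The deposited −log10 p-value and −log10 q-value belong to each peak, and the deposited score was not used. The shift for Tn5, removal of mitochondrial reads and read depth were not given in the sources used here. The study's differential analysis works on read counts, which peak lists do not hold, so limma on peak values was used instead.

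The 12 to 15 peaks per library on chromosome Y were left out. Promoters lay within 1 kb of a TSS of GENCODE 44. limma 3.58.1 (R 4.3.3) was run with robust empirical Bayes on log2 promoter values over 4 groups, and was tested on simulated data made from 11809 promoters. Other comparisons are counts beside the same count over all genes or regions, with no test. The study calls the replicates independent biological ones, and p-values measure the spread between them.

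The 9 genes, gene lists and tests were chosen with earlier results of these data known. By rule, all 9 genes, at most 2 list genes per list and mutant past the threshold with the largest fold difference, and the nearest list gene by profile were named, and genes starting within 1 kb of the regions could be. List genes named outside the rule are said to be. Alternatives were equal peak number (26350), −log10 q of at least 5, 500 bp promoters, a locus of gene body plus 50 kb, 50% cover, other centring, a replicate block and leaving out each library. The profile neighbour of LHX1 and 1 region sequence are not reported here.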

Additional observations from a re-analysis of the deposited data

Results flagged for a closer look

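The covered length of the PAX2 locus moved in opposite directions from the WT mean in the LOF line and in the GOF lines. It was above the WT mean by 953.5 bp and 52.5 bp in the H689A/F667I libraries. In the Y641F libraries it differed by -1705.5 and -238.5 bp, and in the A677G libraries by -1350.5 and -913.5 bp. The difference between the lines was not tested, and H689A/F667I replicate 2 lay between the WT libraries. The libraries of the LOF line also had more peaks than those of the GOF lines. At equal peak number, the PAX2 covered length was higher in both Y641F and both A677G libraries than in both WT libraries, and was not so in H689A/F667I. As a share of the covered length of the library it was higher in all 3 mutants, so the direction in the GOF lines turned. How many of all loci were higher in these settings was not counted.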

How the results depend on the processing

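Read depth is unknown, 2 libraries per line set the error, and closed means only that the caller made no peak. The count of closed promoters was 2, 1 and 1 for Y641F, A677G and H689A/F667I. With equal peak number it became 0 in Y641F and 0 in A677G, and the 1 left in H689A/F667I was WT1, not PAX8. It became 1 in Y641F and 2 in the LOF line when −log10 q had to reach 5, and 1, 0 and 0 with 500 bp promoters. In each of these settings PAX8 no longer had a promoter peak in both WT libraries, so these counts are of other genes. The shares of all promoters closed in these settings were not counted. Lost regions (7, 4 and 2 of 25 open in WT) became 1, 0 and 1 of 12 with equal peak number, beside 11.6%, 6.82% and 6.09% of all regions, and 4, 1 and 3 of 10 with the q threshold, beside 44.8%, 29.1% and 20.6%. With 50% cover they became 6, 6 and 3 of 20, beside 49.2%, 33.5% and 23.6%. Gained regions (0, 0 and 0) became 1 in Y641F and 1 in A677G with equal peak number and 1 in A677G with the q threshold. The shares of all regions gained in these settings were not counted, so these numbers cannot be read as a rate. Loci with less covered length (8, 7 and 5) became 5, 2 and 3 with equal peak number, beside 68.7%, 57.6% and 45.9% of all loci, and 2, 1 and 1 as a share of the library, beside 23%, 15.8% and 14.8%. With the gene body plus 50 kb they became 9, 8 and 6, beside 94.1%, 85.7% and 68.6%, and SIX2 was then lower in all 3 mutants. Loci above both WT libraries, 0 in each mutant, numbered 1, 2 and 0 with equal peak number and 3, 5 and 4 as a share. With the gene body plus 50 kb they numbered 0, 0 and 1 (PAX2). The share of all loci above both WT libraries was not counted. Genes of the set called for −log10 p in Y641F became 2 (WT1 and SIX2) without centring, where 7082 of 11809 promoters were called, against 247 with centring. The causes of these changes were not tested.

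Leaving out 1 library in turn gave 2 to 2, 1 to 2 and 1 to 2 closed promoters for Y641F, A677G and H689A/F667I, 7 to 14, 4 to 10 and 2 to 7 lost regions, 0 to 0, 0 to 3 and 0 to 6 gained regions, and 8 to 9, 7 to 8 and 5 to 8 loci with less covered length. With 1 library left in a line, that library alone decided what was open there. The shares of all promoters closed, regions gained and loci with less covered length were not counted with a library left out. Lost regions in Y641F were 14 of 32 without WT replicate 2 (49.1% of all regions), 11 of 30 without WT replicate 1 (47.4%) and 11 of 25 without Y641F replicate 2 (54.8%). In A677G they were at most 10 of 32 (36.2%) and in H689A/F667I 7 of 32 (29.6%), both without WT replicate 2, and gained regions in H689A/F667I were 6 without its replicate 1. LHX1 in Y641F was called for fold and −log10 p without Y641F replicate 2, so the genes called ranged from 0 to 1 for each, and from 0 to 0 in the other fits. The LHX1 log2 fold difference in H689A/F667I was -0.018 without its replicate 2 and 0.28 without its replicate 1, and the LHX1 width difference in Y641F was 0.18 without its replicate 1 and -2.25 without its replicate 2, so each sign rests on 1 library.

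Libraries with the same number did not deviate together, since correlations of replicate differences over promoters were -0.0243 to 0.0558. With the replicate block, 0 of the 6 promoters were called in any mutant for fold, width or −log10 p, and all promoters called in Y641F numbered 239 for fold and 132 for −log10 p, against 238 and 247 without it. All promoters called for width in Y641F, 0 with all peaks and centring, numbered 56 of 4683 with the q threshold, 21 of 11516 with 500 bp promoters and 1419 without centring, and 12, 4 and 1 in A677G, 3, 2 and 3 in H689A/F667I. Without centring, fold calls in Y641F were 669 and −log10 p calls in A677G 1698. With the q threshold, Y641F calls were 50 for fold and 99 for −log10 p.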
